A study of Mus musculus with 12 samples.

Results

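The classic glucocorticoid-induced genes were 10 genes that respond to glucocorticoid hormones in many cell types: Fkbp5, Tsc22d3, Klf9, Zbtb16, Sgk1, Dusp1, Pdk4, Glul, Mt1 and Mt2. They were chosen by name, and each was found through the accession of its array probe among the 13927 genes tested. Each of the 10 genes had 1 probe, and all 10 lay well above background in both channels on all 12 arrays, with no saturated spot, so none was lost to the filter on dim probes. The cells were 3T3-L1, a mouse embryonic fibroblast line widely used as a pre-adipocyte model. They were kept for 6, 24 or 48 h, either alone or beneath a porous insert that held RAW264.7 mouse macrophages, and RNA was taken from the 3T3-L1 well. Both cultures were left untreated (NT) or received serotonin (S), cortisol (C), or the pair together (CS), each hormone at 100 µM, and the hormone stocks were made in DMSO. The medium was renewed after 24 h, and the sources used here do not state whether NT wells received DMSO. On each array the Cy5 channel held the co-cultured cells and the Cy3 channel the cells grown alone of the same treatment and time. Each treatment and time had 1 array, and dyes were not swapped, so any difference between the dyes at a probe enters each co-culture ratio. Nothing says that the samples of a culture were separate cultures, so p-values measure only the spread between these arrays.

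Glucocorticoids enter the cell and bind the glucocorticoid receptor, the product of Nr3c1, which moves to the nucleus, binds DNA at inverted repeats of a short hexamer and raises or lowers transcription of nearby genes. Cortisol is the main glucocorticoid of humans and also binds the mouse receptor, and synthetic glucocorticoids are a standard part of the mixture that turns 3T3-L1 cells into adipocytes. Serotonin acts through receptors of its own at the cell surface and is not a ligand of the glucocorticoid receptor. Fkbp5, Tsc22d3, Klf9 and Zbtb16 encode regulators of transcription or of the receptor itself, Sgk1 and Dusp1 encode signalling enzymes, Pdk4 and Glul encode metabolic enzymes, and Mt1 and Mt2 encode metallothioneins, small proteins that bind zinc and copper and are also induced by metals.

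The stretches upstream of the gene starts were searched for letters that the receptor and the metal-sensing factor Mtf1 are known to bind. RefSeq promoter entries of mouse build GRCm38.p6 matched 9 of the 10 genes, with 16 entries in all because Sgk1 and Tsc22d3 have several starts. Only the 250 bases before each start were read. The full glucocorticoid response element, searched as AGAACA, any 3 bases and then TGTTCT, which reads alike on both strands, was found in 3 of 32851 promoters of all genes, or 0.00913%. One of these was a promoter of Sgk1, where it began 189 bases before the start. The single hexamer AGAACA, searched on both strands and contained in the full element, was found in 16.1% of all promoters. It was found in a promoter of Tsc22d3, 185 bases before the start, and in 3 promoters of Sgk1. The core of the metal response element, searched as TGCNCNC on both strands, was found in 44.4% of all promoters, so a single match carries little information. There was 1 match before Mt1 and 5 before Mt2. The core was not particular to this pair, with 2 matches before Glul, 1 before Fkbp5, 1 in a promoter of Tsc22d3 and 1 each in some promoters of Sgk1. A match is a description of the letters, not a measured binding site, and the probes do not tell which start of Sgk1 or Tsc22d3 was used. The 4 promoters are shown 5′ to 3′ because they hold the receptor's letters or belong to the metallothionein pair, with every match in capitals.
Sgk1 (chr10:21993640-21993889, plus strand): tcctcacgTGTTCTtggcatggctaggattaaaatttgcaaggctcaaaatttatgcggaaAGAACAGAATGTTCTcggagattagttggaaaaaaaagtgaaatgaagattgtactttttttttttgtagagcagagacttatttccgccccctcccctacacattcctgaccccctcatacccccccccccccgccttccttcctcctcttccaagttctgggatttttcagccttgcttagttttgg
Tsc22d3 (chrX:140600523-140600772, minus strand): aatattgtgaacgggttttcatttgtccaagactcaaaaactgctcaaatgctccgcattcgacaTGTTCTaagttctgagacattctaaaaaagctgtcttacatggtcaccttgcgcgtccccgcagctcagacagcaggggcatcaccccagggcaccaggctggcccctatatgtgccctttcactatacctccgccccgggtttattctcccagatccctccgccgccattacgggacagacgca
Mt1 (chr8:94178839-94179088, plus strand): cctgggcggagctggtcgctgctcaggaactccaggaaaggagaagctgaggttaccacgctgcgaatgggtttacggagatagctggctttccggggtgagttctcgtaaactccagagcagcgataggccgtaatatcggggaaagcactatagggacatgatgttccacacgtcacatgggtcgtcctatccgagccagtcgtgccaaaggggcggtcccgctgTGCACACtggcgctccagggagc
Mt2 (chr8:94172368-94172617, plus strand): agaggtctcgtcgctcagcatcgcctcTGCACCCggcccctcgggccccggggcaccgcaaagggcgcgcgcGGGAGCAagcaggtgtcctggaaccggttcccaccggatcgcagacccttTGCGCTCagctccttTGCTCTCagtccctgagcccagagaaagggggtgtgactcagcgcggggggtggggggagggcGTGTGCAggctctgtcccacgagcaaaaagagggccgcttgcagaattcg

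Levels are given as log2 intensity of a gene's probe after normalization within and between arrays, and differences as log2 of one level over another. Levels of different genes are not compared, since each comes from a probe of its own. A gene was called when its adjusted p was under 0.05 (limma, Benjamini-Hochberg over all genes, two-sided) and its fitted change at least 1.5-fold. Fitted values carry the SE of the limma fit, which uses the 3 times as the repeats of a treatment. The 4 arrays of a time shared a slide, and each treatment sat at the same position on every slide, so time and slide, and treatment and position, cannot be told apart. The fibroblast identity of the cells was clear in their markers, of which 9 of 10 lay above background on all 12 arrays in both cultures. Of 10 adipocyte markers, 3 lay above background on all 12 arrays in either culture, while the adipocyte hormone Adipoq lay above background on none. Of 13 macrophage markers on the array, 5 lay above background on all 12 arrays in cells alone and 7 in co-cultured cells, and their summed log2 level ran from 12.30 to 13.12 alone and from 12.96 to 13.54 in co-culture. In RNA of a whole well, fewer cells of a type and less RNA per cell cannot be told apart.

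For these genes, 3 libraries of cells grown alone differed from other libraries with the same label. The median gene of the 10 in the libraries labelled S lay 0.58 above NT at 6 h and 0.48 above NT at 24 h, but 0.08 above NT at 48 h. At both 6 and 24 h, 7 genes of the library labelled S lay between NT and C, as did 6 at 48 h, so the libraries differ in the size of the shift more than in this count. The library labelled CS of cells alone at 24 h had a median of -0.18 against NT, where the CS libraries at 6 and 48 h had medians of 1.19 and 1.14. Co-cultured cells on the same 3 arrays had medians of -0.01 and 0.20 for S at 6 and 24 h and 0.76 for CS at 24 h. In those S libraries 4 of 9 genes lay above NT at 6 h and 7 of 10 at 24 h. Single genes departed from the medians, with Zbtb16 under S in co-culture at 0.68, 0.54 and -0.51 against NT at 6, 24 and 48 h. The medians over all genes for these comparisons with NT lay between -0.07 and 0.06. A higher level under S does not by itself contradict an S label, and the cause of these differences was not tested. The libraries keep their labels throughout, and results are given with all 12 arrays and without these 3, which were set apart. Since these genes themselves show the discrepancy, the values without the 3 arrays are no independent support for a hormone effect.

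**Figure D1:**
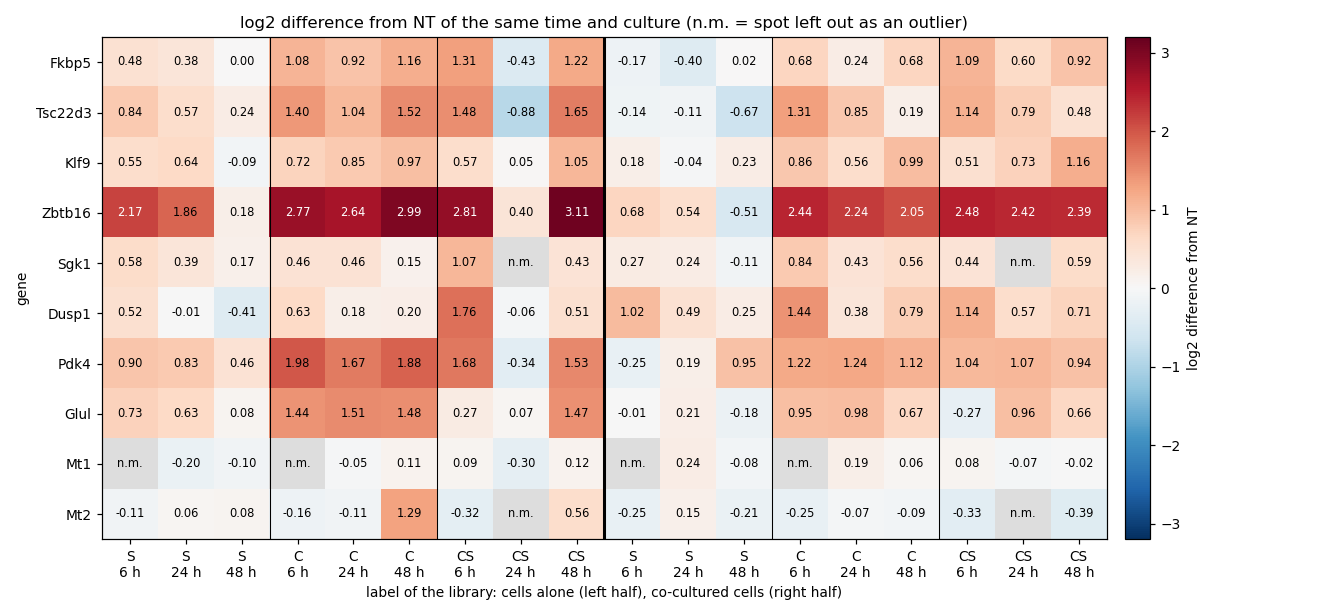
Each cell gives the log2 difference of a library from the NT library of the same time and culture, with genes as rows and libraries as columns (cells alone left of the thick line, co-cultured cells right of it), red for higher and blue for lower. In cells alone the libraries labelled S at 6 and 24 h are mostly red and CS at 24 h is mostly pale or blue, with Zbtb16 at 2.17, 1.86 and 0.40, whereas the right side, co-cultured cells, is red under C and CS at all 3 times except for Mt1, Mt2 and Glul under CS at 6 h.

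The comparison of cortisol with NT in co-cultured cells had macrophages on both sides. It describes the response in co-culture and cannot show what macrophages change in it, which was tested on the co-culture ratio below. Here 6 of the 10 genes were called higher and 0 lower, namely Tsc22d3, Klf9, Sgk1, Dusp1, Zbtb16 and Pdk4, where 1.11% of all genes tested were called higher and 0.804% lower. The median of the 10 fitted differences was 0.80, against -0.01 over all genes. The change was largest for Zbtb16, at 4.74-fold, and between 1.53-fold and 2.29-fold for the other 5. Fkbp5 passed the p threshold at 1.45-fold but not the fold threshold, Glul missed the p threshold, and neither metallothionein was called. Macrophage markers moved the other way, with a list median of -0.33 and 1 of 10 called lower, the growth factor receptor gene Csf1r (-0.68 ± 0.12, adjusted p = 0.0196). Their summed log2 level was 13.46, 13.40 and 13.32 in NT and 13.21, 13.08 and 12.96 in C. In cells alone, grown without macrophages, the sum was also lower in C. It was 12.891, 13.115 and 13.068 in NT and 12.355, 12.541 and 12.508 in C there. The part of the markers in the differences was not tested.

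Among regulators, Fkbp5 encodes a co-chaperone that lowers the receptor's affinity for hormone. In co-cultured cells its level was 12.48, 13.08 and 12.84 in NT and 13.15, 13.32 and 13.52 in C at 6, 24 and 48 h. The 3 C libraries lay above the 3 NT libraries with no overlap, by a fitted 0.53 ± 0.11 (adjusted p = 0.0334). Tsc22d3 encodes GILZ, a leucine zipper protein that mediates anti-inflammatory actions of glucocorticoids. It stood at 13.22, 13.41 and 13.51 in NT and at 14.54, 14.27 and 13.69 in C. The groups did not overlap, but the gap to NT was 1.31 at 6 h and 0.19 at 48 h (fitted 0.79 ± 0.17, adjusted p = 0.0379). Klf9, a Krüppel-like transcription factor, stood at 12.11, 12.53 and 12.05 in NT and at 12.98, 13.10 and 13.05 in C, again without overlap (0.81 ± 0.13, adjusted p = 0.0151).

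Zbtb16 encodes the zinc finger transcription factor PLZF. In co-cultured cells it rose from 8.26, 8.41 and 8.78 in NT to 10.70, 10.65 and 10.83 in C. C lay 2.44, 2.24 and 2.05 above NT at the 3 times, and the fitted difference was 2.24 ± 0.21 (adjusted p = 0.00183). Over all genes measured in these libraries, 3.09% had every C library above every NT library in co-culture, against 4 of the 9 genes measured in all of them, Fkbp5, Tsc22d3, Klf9 and Zbtb16.

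Sgk1, a kinase that acts on ion channels and cell survival, and Dusp1, a phosphatase that switches off MAP kinases, both had their widest gap to NT at 6 h and their narrowest at 24 h. Sgk1 in co-culture was at 13.20, 13.29 and 14.09 in NT and at 14.04, 13.73 and 14.65 in C. C lay above NT at each time, while NT at 48 h lay above C at 6 and 24 h (0.61 ± 0.12, adjusted p = 0.0369). Dusp1 was at 12.70, 12.50 and 13.38 in NT and at 14.15, 12.89 and 14.18 in C. Its difference from NT was 1.44 at 6 h, 0.38 at 24 h and 0.79 at 48 h (0.87 ± 0.17, adjusted p = 0.0303).

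Pdk4 encodes the kinase that shuts down pyruvate dehydrogenase and so spares glucose. In co-culture it was at 9.83, 9.81 and 11.86 in NT and at 11.05, 11.05 and 12.97 in C. Both groups were higher at 48 h, and the gap to NT stayed between 1.12 and 1.24 at the 3 times (1.19 ± 0.22, adjusted p = 0.0232). Glul encodes glutamine synthetase. It was at 11.56, 11.35 and 12.34 in NT and at 12.51, 12.34 and 13.01 in C, above NT at each time, but its 0.87 ± 0.22 missed the threshold (adjusted p = 0.0689).

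In co-culture the metallothioneins stood apart from the other genes. Mt1 in co-culture was at 17.23, 17.30 and 17.77 in NT, and at 17.49 and 17.83 in C at 24 and 48 h, its C spot at 6 h having been left out as an outlier. Mt2 was at 17.03, 17.00 and 17.42 in NT and at 16.78, 16.93 and 17.33 in C. The 95% interval of the difference from NT ran from -0.08 to 0.37 for Mt1 and from -0.33 to 0.06 for Mt2 on the log2 scale, which leaves out the 1.5-fold threshold on either side. These intervals apply only to values normalized by loess and Aquantile. With each array centred on its median and no loess, the co-culture ratio of Mt1 at 6 h went from -0.03 to 1.68. In cells alone Mt2 was at 16.05, 15.64 and 16.95 in C against 16.21, 15.76 and 15.65 in NT, so the C library lay above NT at 48 h and below it at 6 and 24 h. Among the other genes of zinc handling fixed in a list, 2 of 7 were called higher with cortisol in co-culture, where 1.11% of all genes were. The 2 were the metallothionein gene Mt4 (1.44 ± 0.16, adjusted p = 0.00442) and the zinc importer Slc39a14 (0.65 ± 0.14, adjusted p = 0.0366). Mt4 was dim, at 6.79, 6.96 and 7.89 in NT and at 8.57, 8.44 and 8.96 in C.

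Cortisol plus serotonin against NT in co-cultured cells likewise gave 6 genes called higher and 0 lower, where 2.78% of all genes were called higher and 0.948% lower. They were Fkbp5, Tsc22d3, Klf9, Dusp1, Zbtb16 and Pdk4. This comparison shares its NT libraries with that of cortisol alone, so the values are given side by side. Fkbp5 stood at 13.57, 13.69 and 13.76 in CS, above all its NT and C libraries, with a fitted 0.87 ± 0.11 over NT (adjusted p = 0.00308). Zbtb16 stood at 10.75, 10.83 and 11.17 in CS and lay 2.43 ± 0.21 above NT (adjusted p = 0.00135). Every CS library lay above every NT library for 4 of the 8 genes measured in all of them, Fkbp5, Tsc22d3, Klf9 and Zbtb16, where 4.76% of all genes did. Klf9, at 12.62, 13.27 and 13.21 in CS, lay 0.80 ± 0.13 above NT (adjusted p = 0.00913). Tsc22d3, at 14.37, 14.20 and 13.98, lay 0.80 ± 0.17 above NT (adjusted p = 0.0234), and its gap to NT was again smallest at 48 h. Dusp1, at 13.84, 13.08 and 14.09, lay 0.81 ± 0.17 above NT (adjusted p = 0.0241). Pdk4, at 10.87, 10.88 and 12.79, lay 1.01 ± 0.22 above NT (adjusted p = 0.0251). Glul was at 11.29, 12.31 and 13.01 in CS, below NT at 6 h and above it at 24 and 48 h. Sgk1, with its spot at 24 h left out, was not called (0.50 ± 0.14, adjusted p = 0.067). Without the 3 arrays, 1 of which is the CS array at 24 h, 1 of the 10 genes was called higher, where 0.0503% of all genes were. The fit to the CS and NT arrays also called 1 higher, where 0.0144% of all genes were.

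Adding serotonin to cortisol was compared directly as CS against C. In co-cultured cells 0 of all 13924 genes were called by limma, with 686 at an unadjusted p under 0.05. The difference was 0.34 for Fkbp5 (95% interval 0.10 to 0.58), 0.18 for Zbtb16 (-0.28 to 0.65), -0.18 for Pdk4 (-0.66 to 0.31) and -0.42 for Glul (-0.91 to 0.08), each with an adjusted p of 0.948 or more. These intervals do not show that the treatments act alike, since that of Zbtb16 reaches past 1.5-fold. In cells alone 0 of the 10 were called, where 0.0215% of all genes were called higher.

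Serotonin alone gave 0 of the 10 genes called in either culture, and 0 of 13926 genes in all, with 916 at an unadjusted p under 0.05 in co-culture and 1123 in cells alone. In co-culture Zbtb16 was at 8.94, 8.96 and 8.27 in S, so S lay above NT at 6 and 24 h and below it at 48 h. Dusp1 was at 13.73, 12.99 and 13.63 in S, above NT at each time by 1.02, 0.49 and 0.25. Pdk4 in S lay 0.25 below NT at 6 h and 0.95 above it at 48 h. Fkbp5 in S was at 12.31, 12.68 and 12.86 and Tsc22d3 at 13.08, 13.30 and 12.84, so Tsc22d3 lay below NT at each time. In cells alone S lay above NT at all 3 times for 6 of the 9 genes measured at each time, where 14.3% of all genes did, and 2 of those 3 libraries are among those set apart above.

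**Figure D2:**
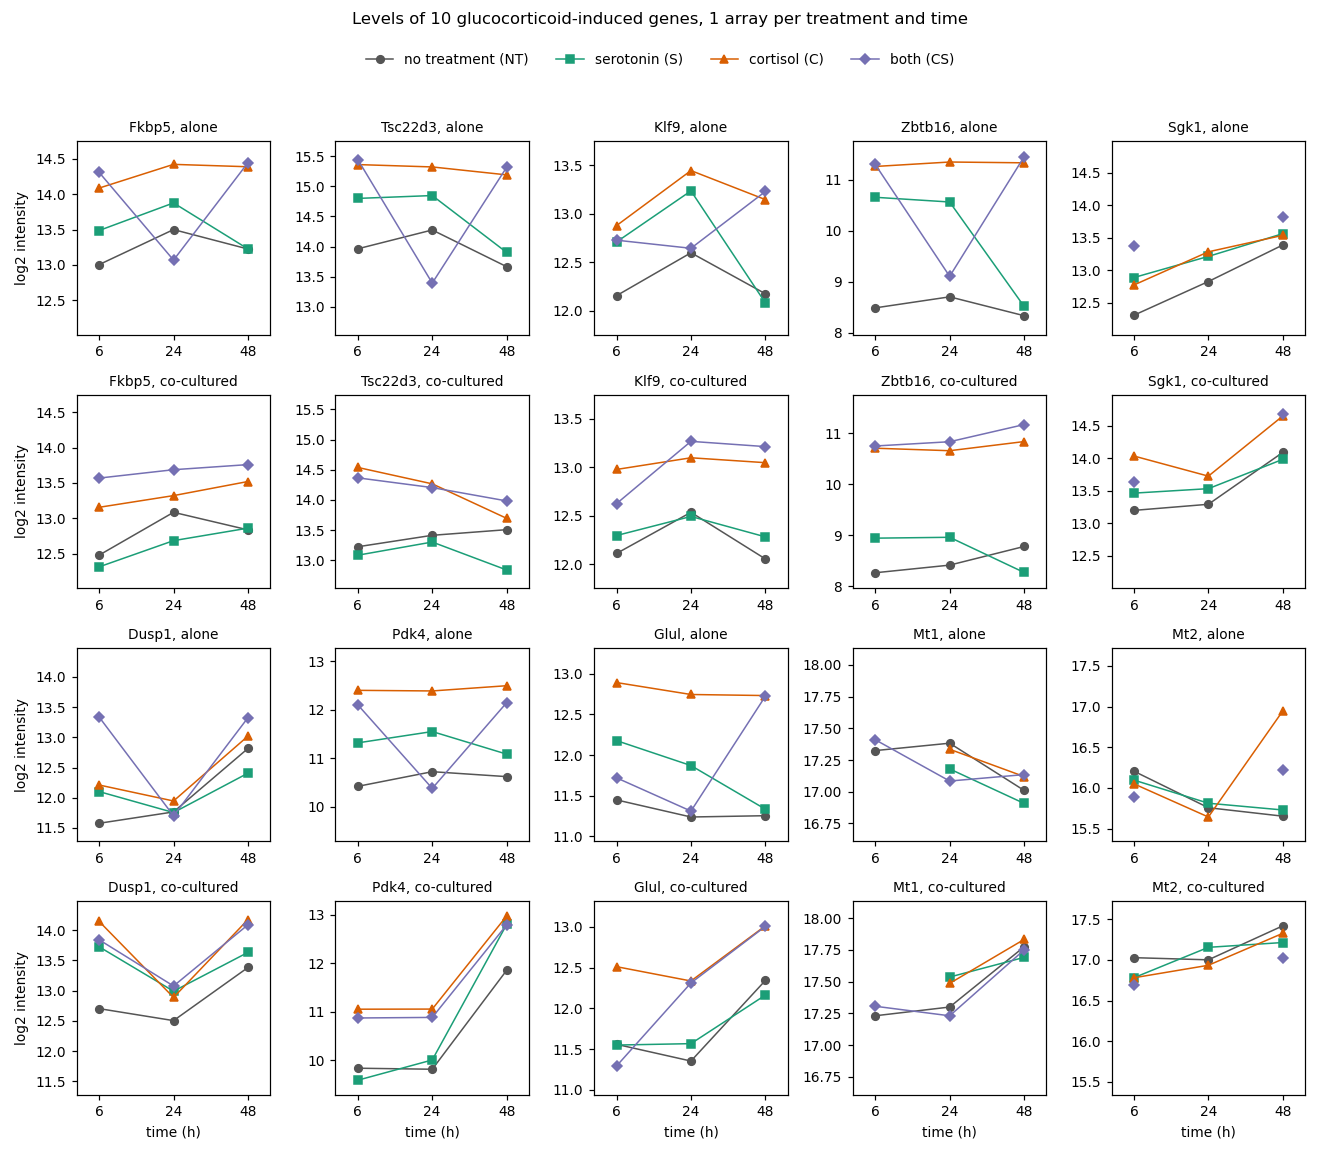
Each panel plots the log2 intensity of a gene (y axis) at 6, 24 and 48 h (x axis) in cells alone or in co-cultured cells, with 1 point per library and lines joining the libraries of a treatment. In co-culture the C and CS points of Zbtb16 sit between 10.65 and 11.17 and those of NT and S between 8.26 and 8.96, while in cells alone the libraries labelled S lie at 10.66 and 10.56 at 6 and 24 h and CS at 24 h lies at 9.11.

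In cells grown alone, the levels under cortisol were higher than in NT for most of the 10 genes, but limma called 0 of them when fitted over all 12 arrays. Over all genes 0.144% were called higher and 0.0646% lower, and 2423 of 13927 had an unadjusted p under 0.05. The median of the 10 fitted differences was 0.95, against -0.0006 over all genes. All 3 C libraries lay above all 3 NT libraries for 6 of the 9 genes measured in all of them, Fkbp5, Tsc22d3, Klf9, Zbtb16, Pdk4 and Glul, where 5% of all genes did. The C and NT libraries are not among the 3 set apart above.

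Zbtb16 in cells alone was at 8.49, 8.71 and 8.34 in NT and at 11.26, 11.35 and 11.33 in C. The difference from NT was 2.77, 2.64 and 2.99 at the 3 times, a fitted 2.80 ± 0.63 (adjusted p = 0.0797). The S libraries were at 10.66, 10.56 and 8.52 and the CS libraries at 11.30, 9.11 and 11.45, so S spread over more than 2 log2 units and so did CS. Pdk4 was at 10.42, 10.73 and 10.62 in NT and at 12.40, 12.39 and 12.50 in C, with a fitted 1.84 ± 0.37 (adjusted p = 0.0682). Its S libraries were at 11.32, 11.55 and 11.09 and its CS libraries at 12.10, 10.38 and 12.15. Glul was at 11.45, 11.24 and 11.25 in NT and at 12.89, 12.74 and 12.73 in C (1.47 ± 0.31, adjusted p = 0.0707).

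Fkbp5 in cells alone was at 13.00, 13.50 and 13.22 in NT and at 14.09, 14.42 and 14.39 in C. Tsc22d3 was at 13.96, 14.28 and 13.67 in NT and at 15.36, 15.32 and 15.19 in C. For both genes C lay at least 0.92 above NT at each time, and CS at 24 h, at 13.07 for Fkbp5 and 13.39 for Tsc22d3, lay below NT. Klf9 was at 12.16, 12.60 and 12.18 in NT and at 12.88, 13.44 and 13.15 in C. Sgk1 and Dusp1 moved less with cortisol in cells alone, by 0.46, 0.46 and 0.15 for Sgk1 and by 0.63, 0.18 and 0.20 for Dusp1 at 6, 24 and 48 h.

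Without the 3 arrays, the fitted differences of cortisol in cells alone were the same for 9 of the genes, since every C and NT array stays in the fit, and that of Mt1 went from 0.06 to 0.03. The SE fell for 8 genes and rose for Sgk1, from 0.122 to 0.136, and for Mt2, from 0.268 to 0.271. Then 6 of the 10 genes were called higher, where 0.574% of all genes were. Zbtb16 then lay at 2.80 ± 0.12 (adjusted p = 0.0011), Pdk4 at 1.84 ± 0.11 (adjusted p = 0.00353), Tsc22d3 at 1.32 ± 0.12 (adjusted p = 0.0123), Fkbp5 at 1.06 ± 0.10 (adjusted p = 0.0124), Klf9 at 0.85 ± 0.12 (adjusted p = 0.0349) and Glul at 1.47 ± 0.23 (adjusted p = 0.0454). A fit to the C and NT arrays only, chosen after seeing the data, also called 6 of the 10, where 0.596% of all genes were called higher. In co-cultured cells, leaving out the 3 arrays lowered the called genes from 6 to 2, Zbtb16 and Pdk4, where 0.122% of all genes were called higher. The fit then rests on fewer arrays. Leaving out only the array labelled CS at 24 h raised the called genes in cells alone from 0 to 5 under C and from 1 to 5 under CS.

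For cortisol plus serotonin in cells alone, 1 of the 10 genes was called with all arrays, where 1.12% of all genes were called higher and 0.244% lower. It was Sgk1 (0.77 ± 0.14, adjusted p = 0.0391), at 13.37 and 13.82 in CS at 6 and 48 h against 12.31 and 13.39 in NT. Its CS spot at 24 h had been left out as an outlier, and with such spots kept it was not called. Without the 3 arrays, 4 genes were called, where 0.144% of all genes were called higher: Zbtb16 (2.92 ± 0.15), Pdk4 (1.56 ± 0.13), Tsc22d3 (1.49 ± 0.14) and Fkbp5 (1.23 ± 0.12). Dusp1 in CS lay 1.76 above NT at 6 h and 0.51 above it at 48 h, and 0.06 below it at 24 h.

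**Figure D3:**
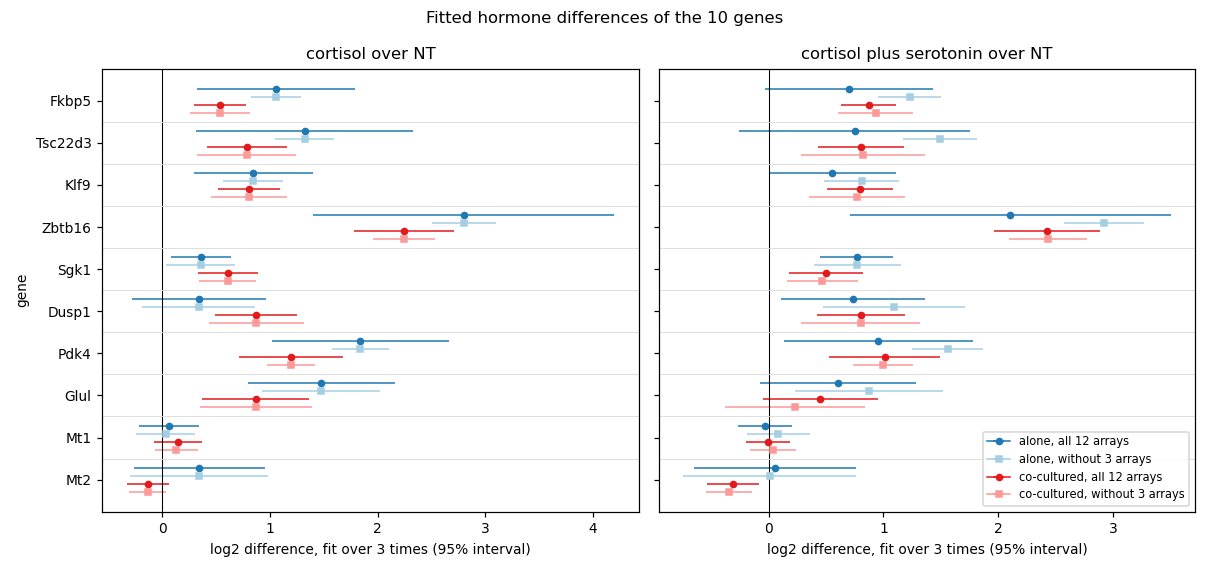
Points are the log2 differences of cortisol (left) and of cortisol plus serotonin (right) from NT fitted over the 3 times for each gene (rows), with lines for the 95% interval of the limma fit, blue for cells alone and red for co-cultured cells, dark for all 12 arrays and pale without the 3 arrays set apart for their values in cells alone. Zbtb16 lies furthest from 0 in both cultures, at 2.80 alone and 2.24 in co-culture under cortisol, with an interval that is wide in cells alone only when all arrays are used. Mt1 lies near 0. Under cortisol Mt2 lies at 0.34 in cells alone (interval -0.27 to 0.95, all arrays) and at -0.14 in co-culture.

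Whether the cortisol response itself differed between the cultures was tested on the co-culture ratio, as C against NT. No gene was called, 0 of 13927, with 1367 at an unadjusted p under 0.05. The difference was -0.56 ± 0.50 for Zbtb16, -0.65 ± 0.45 for Pdk4, -0.61 ± 0.29 for Glul and -0.52 ± 0.31 for Fkbp5, the response being smaller in co-culture. It was 0.53 ± 0.26 for Dusp1 and 0.25 ± 0.17 for Sgk1, the response being larger in co-culture. The adjusted p-values of these 6 genes ran from 0.526 to 0.724. The 95% interval for Zbtb16 ran from -1.65 to 0.54, which reaches past 1.5-fold on the lower side. Without the 3 arrays set apart the 6 differences were the same, and again 0 of 13927 genes were called by limma. The interval for Zbtb16 was then -0.86 to -0.26, and the adjusted p-values of the 6 genes ran from 0.232 to 0.679. Since these genes showed the discrepancy of those arrays, the narrower interval is no independent support.

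Co-culture itself was compared with growth alone at each time, over the 4 treatments. At 6 h 3 of the 10 genes were called higher in co-culture and 3 lower, where 4.37% and 5.24% of all genes were. Dusp1 was higher, with ratios of 1.13, 1.62, 1.94 and 0.51 on the NT, S, C and CS arrays (fitted 1.30 ± 0.16, adjusted p = 0.000101). Sgk1, at 0.89, 0.58, 1.26 and 0.27 (0.75 ± 0.11), and Mt2, at 0.82, 0.68, 0.73 and 0.81 (0.76 ± 0.16), were also higher on all 4 arrays. Pdk4 was lower, at -0.59, -1.73, -1.35 and -1.23 (-1.23 ± 0.27, adjusted p = 0.00351), as were Tsc22d3, at -0.74, -1.71, -0.82 and -1.08 (-1.09 ± 0.28), and Fkbp5, at -0.53, -1.17, -0.93 and -0.74 (-0.84 ± 0.19). On the NT arrays, which carry no hormone, these ratios had the same sign as the fitted mean for each of the 6 genes. The S arrays at 6 and 24 h gave the lowest ratio of their time for Tsc22d3, Zbtb16 and Pdk4.

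At 24 h Dusp1 (1.07 ± 0.16) and Mt2 (1.25 ± 0.16) were called higher and Pdk4 (-0.82 ± 0.27) lower, where 4.66% and 3.69% of all genes were. The CS array gave ratios of 0.62 for Fkbp5, 0.81 for Tsc22d3, 1.72 for Zbtb16, 0.50 for Pdk4 and 1.00 for Glul. These were the highest of the 4 ratios of that time for each of the 5 genes, and for the first 4 the other 3 arrays lay below 0. Without the 3 arrays, Fkbp5, Tsc22d3, Zbtb16 and Pdk4 were called lower at 24 h, 4 of the 10 where 3.7% of all genes were, and Dusp1 and Mt2 again higher, where 4.38% were.

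At 48 h 6 of the 10 genes were called higher in co-culture and 1 lower, where 14.5% and 16.7% of all genes were. Mt2 lay at 1.77, 1.49, 0.38 and 0.81 on the NT, S, C and CS arrays (1.11 ± 0.16, adjusted p = 0.000101). Mt1, at 0.76, 0.78, 0.71 and 0.62, had the narrowest spread (0.72 ± 0.07, adjusted p = 8.08e-06). Dusp1 (0.93 ± 0.16), Sgk1 (0.78 ± 0.11), Pdk4 (1.02 ± 0.27) and Glul (0.62 ± 0.18) were higher as well, and Tsc22d3 was lower (-1.01 ± 0.28). The Tsc22d3 ratio was only -0.16 on the NT array, which carries no hormone, and -1.06, -1.49 and -1.33 on the S, C and CS arrays. Fkbp5 was below 0 on all 4 arrays, from -0.87 to -0.37, and passed the p threshold but not the fold threshold.

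Pdk4 turned from lower to higher in co-culture between 24 and 48 h. In the NT libraries its level in co-culture was 9.83, 9.81 and 11.86 while that in cells alone was 10.42, 10.73 and 10.62, so the step at 48 h was in the co-cultured cells, and the level alone stayed between 10.42 and 10.73. Its ratio was 2.24 ± 0.39 higher at 48 h than at 6 h (adjusted p = 0.000577), and 1.84 ± 0.39 higher than at 24 h (adjusted p = 0.0023), where 9.32% of all genes had a higher ratio at 48 than at 24 h. Glul (0.95 ± 0.25, adjusted p = 0.00825) and Mt1 (0.75 ± 0.10, adjusted p = 0.000204) also had a higher ratio at 48 h than at 6 h, where 11.9% of all genes did. The Mt1 ratio at 6 h was -0.03 in this fit but 1.68 with each array centred on its median and no loess. Macrophage markers moved with co-culture too, 5 of 10 tested being called higher at 6 h, 1 at 24 h and 5 at 48 h, where 4.37%, 4.66% and 14.5% of all genes were, and 1 being called lower at 48 h. Their part in these ratios was not tested.

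**Figure D4:**
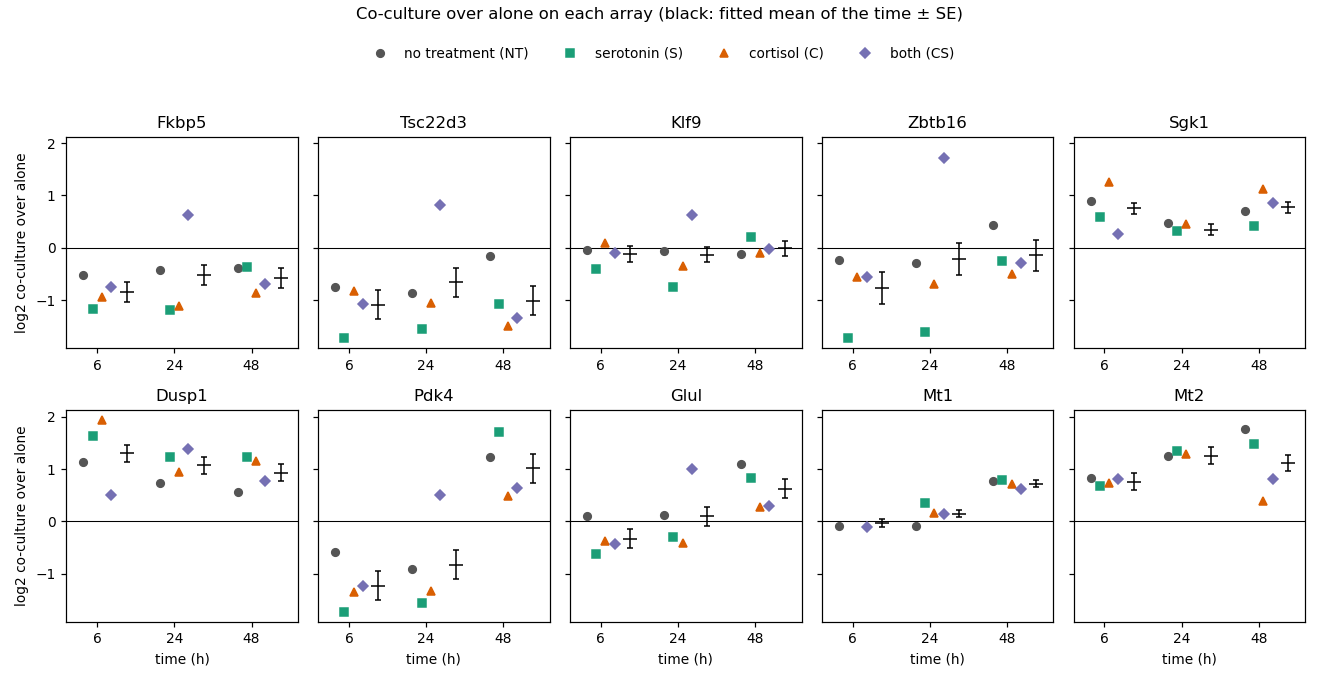
Each panel plots the log2 ratio of co-culture over alone (y axis) at 6, 24 and 48 h (x axis) for a gene, with 1 coloured point per array and in black the fitted mean of the time with its SE. Dusp1, Sgk1 and Mt2 lie above 0 on all arrays measured, and Pdk4 moves from -1.23 at 6 h to 1.02 at 48 h. At 24 h the CS array lies highest for Fkbp5, Tsc22d3, Klf9, Dusp1, Zbtb16, Pdk4 and Glul.

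The pattern of Fkbp5 across the 24 libraries, each centred on its time and channel, was compared with that of every gene measured in all of them, 13112 genes with Fkbp5 itself counted as the first. Tsc22d3 was the nearest, with a Pearson r of 0.9419, and Zbtb16 (0.9184), Pdk4 (0.8974) and Klf9 (0.885) followed within the first 37, while Glul (0.7186) and Dusp1 (0.6704) ranked 365 and 599. These r are descriptions, since the points share arrays and hormones. Outside the 10 genes the nearest with a full gene symbol were the ion channel gene Cnga2 (0.9368), Ear2 (0.9273), Ear1 (0.9244), the synapsin gene Syn2 (0.9216) and Adamtsl4 (0.9213). Cnga2, Ear1 and Syn2 were dim without hormone, at 6.51, 6.43 and 6.43 in NT of co-cultured cells at 6 h. Ear1 and Ear2 encode ribonucleases of the eosinophil family and are near-identical, so their probes may pick up both. In co-culture Ear2 was at 7.57, 7.12 and 8.06 in NT and at 9.98, 9.95 and 10.96 in C, without overlap (2.71 ± 0.25). In cells alone it was at 7.91, 7.93 and 7.71 in NT and at 11.56, 12.34 and 13.23 in C, and at 8.05 in the library labelled CS at 24 h, where CS at 6 and 48 h stood at 11.95 and 13.19.

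Among 23 other glucocorticoid-induced genes measured, 3 were called higher and 0 lower with cortisol in co-cultured cells, where 1.11% and 0.804% of all genes were. The list median was 0.12, against -0.01 for all genes. The 3 were the clock gene Per1 (0.93 ± 0.20, adjusted p = 0.0416), the muscle ubiquitin ligase Trim63 (1.24 ± 0.21, adjusted p = 0.0185) and the receptor kinase Mertk (0.64 ± 0.15, adjusted p = 0.0484). Trim63 and Mertk were dim, at 6.46, 7.18 and 6.93 and at 6.60, 6.68 and 7.05 in NT of co-cultured cells. With both hormones in co-culture 4 of the 23 were called higher, where 2.78% of all genes were. In cells alone 0 of the 23 were called under cortisol with all arrays, where 0.208% of all genes were called higher or lower. Without the 3 arrays 5 were called higher in cells alone, where 0.574% of all genes were. In co-culture the 3 became 1 without those arrays, and the share of all genes called higher fell from 1.11% to 0.122%. Between the cultures, 6 of the 23 were called higher in co-culture and 1 lower at 6 h, 3 and 0 at 24 h, and 5 and 4 at 48 h, where 4.37% and 5.24%, 4.66% and 3.69%, and 14.5% and 16.7% of all genes were. Of 10 genes for the glucocorticoid receptor and its partners, 0 were called with cortisol in either culture. The receptor gene Nr3c1 was at 13.24, 13.50 and 12.72 in NT and at 13.12, 13.40 and 13.12 in C in co-culture, and in cells alone at 13.78, 14.20 and 13.72 in NT and at 13.34, 13.60 and 13.72 in C.

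Of 12 inflammatory genes that glucocorticoids are known to repress, 1 was called lower and 0 higher with cortisol in co-cultured cells, where 0.804% and 1.11% of all genes were. The list median was -0.25, and 1 of 12, 3 of 11 and 5 of 12 lay above NT at 6, 24 and 48 h. In cells alone 0 were called with all arrays. The list median there was -0.67, and 2 of 12, 0 of 11 and 0 of 12 lay above NT. Without the 3 arrays 2 were called lower in cells alone, where 0.481% of all genes were. The gene called in co-culture was Csf2, which encodes the growth factor GM-CSF, at 10.75, 12.90 and 10.55 in NT and at 9.58, 10.44 and 9.18 in C (-1.67 ± 0.27, adjusted p = 0.0151). In cells alone Csf2 was at 9.12, 11.03 and 11.68 in NT and at 8.38, 8.02 and 7.79 in C, and the library labelled CS at 24 h stood at 11.40 where those at 6 and 48 h stood at 8.27 and 7.84. Among adipocyte markers, 1 of 6 measured was called higher with cortisol in co-culture, where 1.11% of all genes were. This was the fatty acid binding protein gene Fabp4 (0.83 ± 0.13, adjusted p = 0.0139). The list median was 0.006, against -0.007 for all genes, and 3 of the 6 lay above NT at 24 h and at 48 h. Fabp4 in co-culture was at 14.56, 14.43 and 14.13 in NT and at 14.98, 15.32 and 15.30 in C. In cells alone Fabp4 was at 14.56, 15.03 and 15.20 in NT and at 14.94, 14.55 and 15.74 in C, without a call (adjusted p = 0.797). Between the cultures, 8 of the 12 inflammatory genes were called higher in co-culture and 0 lower at 6 h, where 4.37% and 5.24% of all genes were. At 24 h 6 and 1 were called, where 4.66% and 3.69% of all genes were. At 48 h 2 and 2 were called, near the 14.5% and 16.7% of all genes called at that time. Without the 3 arrays, 0 of the inflammatory genes, 0 of the adipocyte markers and 1 of the 7 zinc genes were called with cortisol in co-culture. Of all genes 0.122% were then called higher and 0.0503% lower.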

How the data were processed

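RNA of 3T3-L1 cells was measured on 12 dual-colour Agilent mouse arrays (co-cultured, Cy5, against alone, Cy3). The authors read the scans with Agilent Feature Extraction (10.7.3.1 by the headers, 10.5.1.1 by their processing notes). The deposited files give a linear intensity for every spot and its local background, a processed signal, a log10 ratio of red over green, and other columns that flag outlier, saturated and dim spots. The log10 ratios of the deposited value table differed from those of the scanner files by at most 0.00499.

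Background correction by normexp (offset 50) on median spot signals was followed by normalization by loess within arrays, with control spots at weight 0, and by Aquantile between arrays for single channels, using limma 3.58.1 and statmod 1.5.0 (R 4.3.3). Local backgrounds over 5 times the array median were replaced by that median and the 58 spots left out, as were outlier spots. Of 39429 probes, 27508 were named through RefSeq accessions (assembly GRCm38.p6). A probe was kept where 3 or more arrays had it well above background in any channel, and each gene was represented by its brightest probe. From 19949 to 22824 probes an array passed that flag in Cy5, from 18443 to 21368 in Cy3, and the number of arrays limits the precision. Time and treatment were additive terms (6 residual degrees of freedom), fitted with lmFit and eBayes with a trend. The fit was tested on simulated data, with changes placed in 200 of 13113 genes. It recovered 80% of log2 changes of 1 under cortisol in cells alone and 92% in co-cultured cells. These shares need not hold for the genes reported here. With all arrays of cells alone, cortisol gave 2.80 ± 0.63 for Zbtb16 and 1.84 ± 0.37 for Pdk4, and neither was called. The alternatives were other offsets, filters, normalizations, signals, array weights, fold thresholds and sets of arrays.

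The genes, the lists and the doubt about 3 arrays came with earlier results of these data known. The text names all 10 genes, up to 4 genes per list called with cortisol (largest difference first), Nr3c1 in any case, and the 5 genes most like Fkbp5. Planned mean spot signals were not used here. Plots used matplotlib 3.10.9 (python 3.11.15).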

Additional observations from a re-analysis of the deposited data

Results flagged for a closer look

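The co-culture ratio of 3 genes differed between times by a test of the difference itself (limma, adjusted over all genes). For Pdk4 it was 2.242 higher at 48 h than at 6 h (adjusted p = 0.000577) and 1.839 higher than at 24 h (adjusted p = 0.0023), on the log2 scale. For Glul it was 0.9528 higher at 48 h than at 6 h (adjusted p = 0.00825). For Mt1 it was 0.7481 higher at 48 h than at 6 h (adjusted p = 0.000204), with 2 of 4 arrays measured at 6 h. The Mt1 ratio at 6 h was -0.03 in this fit. With each array centred on its median and no loess it was 1.68 and was called (limma, adjusted p = 6.48e-08). The Mt1 value at 48 h under that setting is not given here. Time and slide cannot be told apart in these differences. Tsc22d3 under serotonin lay below NT at all 3 times in co-cultured cells and above NT at all 3 times in cells alone, and the difference between the cultures was -0.8537, which missed the threshold (adjusted p = 0.439). Libraries of cells alone labelled S at 6 and 24 h, which are among those set apart, enter that value. None of the 27 sets of 4 arrays checked had an array far from the others by Dixon's test.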

How the results depend on the processing

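Counts are of the 10 genes called. The 6 called under C in co-cultured cells became 3 with no filter on dim probes, 2 at a 2-fold threshold, 2 without the 3 arrays labelled S 6 h, S 24 h and CS 24 h, 3 without the 48 h arrays, and 2 with only the arrays of both treatments compared. The 6 under CS in co-cultured cells became 2, 1 and 1 at a 2-fold threshold, without the 3 arrays and in a joint fit of both channels, and 1 with only the arrays of both treatments. Over all genes the share called higher under CS in co-culture fell from 2.78% to 0.0503% without the 3 arrays and 0.0144% with only those arrays. Under C in co-culture that share fell from 1.11% to 0.122% and 0.0503%. The 0 under C in cells alone became 3 with array weights, 6 without the 3 arrays, 2 with Feature Extraction's processed signals, 4 in the joint fit and 6 with only the arrays of both treatments. The 1 under CS in cells alone became 4 without the 3 arrays and 0 with no filter, array weights, a 2-fold threshold, processed signals, outlier spots kept, only the arrays of both treatments, or without the 48 h arrays. Co-culture over alone at 24 h went from 3 to 5 with array weights, 5 with no fold threshold and 6 without the 3 arrays, and at a 2-fold threshold from 6 to 3 at 6 h and from 7 to 3 at 48 h. Leaving out 1 array at a time gave 0 to 5 under C and 0 to 5 under CS in cells alone, 1 to 7 and 3 to 6 in co-cultured cells, 5 to 7, 2 to 6 and 6 to 7 for co-culture at 6, 24 and 48 h, and 0 for serotonin and for the difference in cortisol response. In co-culture under C the count fell to 1 without C at 6 h, to 2 without NT at 6 h, C at 24 h or C at 48 h, and to 3 without S at 24 h, and under CS to 3 without NT at 6 h or CS at 24 h. At 24 h co-culture over alone gave 6 without CS at 24 h. These fits have fewer residual degrees of freedom.

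With each array centred on its median and no loess, the co-culture value at 24 h turned to 0.19 for Fkbp5, 0.20 for Tsc22d3 and 0.12 for Zbtb16. That of Mt1 at 6 h turned to 1.68 and was called, and it enters the flagged Mt1 difference between times. The Mt1 value at 24 h was -0.0653 with processed signals and -0.0654 with the deposited ratios, and at 6 h it was 0.0124 without the 48 h arrays. Leaving out 1 array at a time gave -0.0679 to 0.00612 for Mt1 at 6 h, the sign turning without NT at 48 h, and -0.85 to 0.0698 for Zbtb16 at 24 h, the sign turning without S at 24 h. The cause was not tested. Of 51 single-gene results called under some setting, 9 of 1345 alternative values changed sign, 132 lost the call and 71 gained it, and 28 of 49 values never called changed sign at least once. Mean spot signals were not run. The labels give no replicate numbers to block on. Libraries were compared within times through the time term, and cultures within arrays through the ratio. With 1 array per treatment and time, the spread between arrays sets what can be called.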
